A study of Mus musculus with 4 samples.

Results

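The genes described here are 10 regulators and products of the growing hair follicle, *Shh*, *Lef1*, *Msx2*, *Foxn1*, *Tchh*, *Dlx3*, *Wnt10b*, *Padi3*, *Fgf5* and *Lgr5*, chosen by gene symbol out of the 24346 symbols in the files. All 10 were found in each of the 4 libraries. The libraries came from dorsal skin of male C57BL/6 mice that were 8 weeks old when the diet began. The Cont-IMQ group (replicates 1 and 2) received the NASH diet, which is rich in fat, cholesterol, sucrose and bile salt, for 3 weeks, and the 7KC-IMQ group (replicates 1 and 2) received that diet with the oxysterol 7-ketocholesterol (7KC) added. Skin of both groups was treated with imiquimod (IMQ) cream, which induces a psoriasis-like dermatitis, for 1 day, so neither untreated nor vehicle-treated skin is part of the comparison. The labels do not say whether a library is from 1 mouse or from a pool, or at which stage of the hair cycle the skin was, and p-values measure only the spread between these libraries.

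Hair follicles pass through growth (anagen), regression (catagen) and rest (telogen), and in the mouse neighboring follicles of the back tend to do so together. At the start of growth, Wnt signals acting through beta-catenin and LEF1 activate the follicle germ, and Sonic hedgehog from the epithelium drives its downgrowth. Transcription factors such as MSX2, FOXN1 and DLX3 then direct matrix cells into the hair shaft and the inner root sheath, where trichohyalin is laid down and converted by peptidylarginine deiminases. FGF5 is known as a signal that ends growth, and LGR5 marks stem cells of the lower follicle that are present in the resting phase as well.

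Expression is given as FPKM, the number of fragments scaled to exon length and to the mapped fragments of the library, as deposited. Differences are in log2(FPKM + 1), a scale on which changes of weakly expressed genes come out too small, and the groups were compared by limma over the 15896 genes with a mean of at least 0.1 FPKM. All 10 genes passed that filter. The spans of *Shh*, *Lef1*, *Tchh* and *Lgr5* overlap annotated genes on the opposite strand, and whether strand entered the counting is not given in the sources used here. *Lef1* also overlaps *Gm42449* on its own strand (2258 bases). Whole gene spans were compared, so an overlap need not reach exons. Depth, estimated from the steps in the low FPKM values, was between 15010000 and 16320000 reads per library, and 3 reads or fewer were taken as the floor. Markers of the labelled tissue were present in every library: the 9 genes of the basal and suprabasal epidermis summed to between 16379 and 24271 FPKM, and 7 fibroblast genes to between 2590 and 3531 FPKM. Skeletal muscle genes were also high (9 genes, 7779 to 9713 FPKM summed).

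The 2 libraries of the Cont-IMQ group lay at opposite ends for most of these genes, with both 7KC-IMQ libraries between them. Of the 10 genes, 8 were lowest in Cont-IMQ replicate 1 and highest in Cont-IMQ replicate 2, an order found in 8.85% of all genes tested. *Tchh* and *Padi3* differed about 15-fold between the Cont-IMQ libraries, at 15.5-fold and 15.0-fold in FPKM, whereas the 7KC-IMQ libraries were nearly equal in both. None of the 10 genes differed between the diets by limma (adjusted p = 0.527 to 0.958), where 0.00629% of all genes passed. None had an unadjusted p-value under 0.05 either, against 13.0% of all genes. The exceptions to the order were *Fgf5* and *Lgr5*, whose 7KC-IMQ values both lay below the Cont-IMQ values, as did those of 22.9% of all genes. No member was higher in both 7KC-IMQ libraries, as were 23.9% of all genes.

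**Figure D1:**
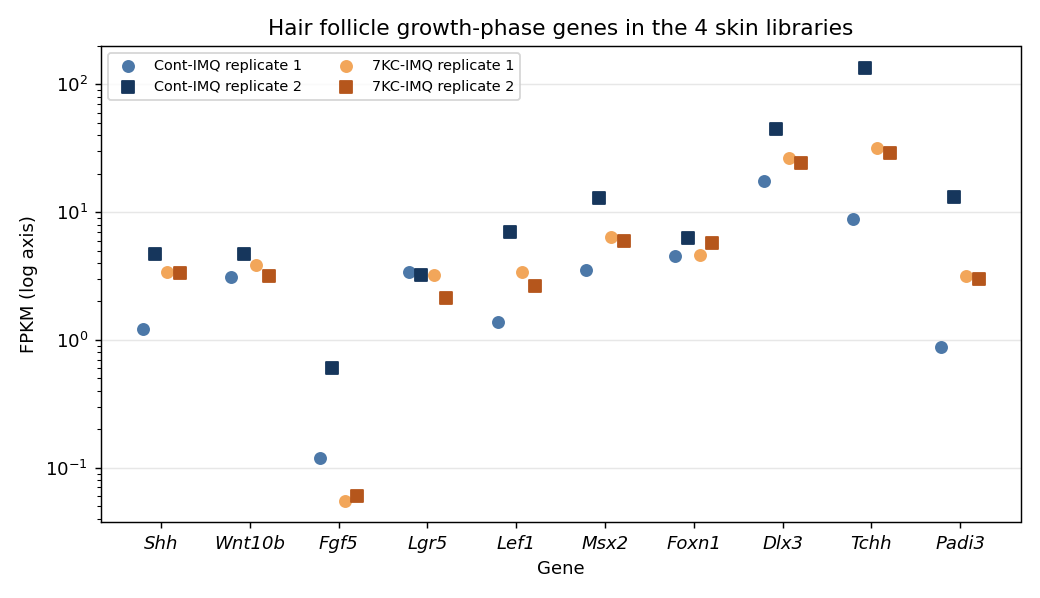
FPKM of each of the 10 genes (log axis) in the 4 libraries, with Cont-IMQ in blue, 7KC-IMQ in orange, circles for replicate 1 and squares for replicate 2. *Tchh* spans 8.77 to 136 FPKM between the Cont-IMQ libraries, and the 7KC-IMQ libraries lie between them for all genes but *Fgf5* and *Lgr5*.

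*Tchh* and *Padi3*, the pair with the widest spread, are shown with the 250 bases before their RefSeq start sites (GRCm38.p6), so that the upstream sequence of the most variable members stands beside their values. The *Tchh* stretch is chr3:93442080-93442329 on the plus strand, and the *Padi3* stretch is chr4:140810649-140810898 on the minus strand. Capitals mark the letters CTTTGA, the core that LEF1 and TCF factors bind, on either strand.
Tchh: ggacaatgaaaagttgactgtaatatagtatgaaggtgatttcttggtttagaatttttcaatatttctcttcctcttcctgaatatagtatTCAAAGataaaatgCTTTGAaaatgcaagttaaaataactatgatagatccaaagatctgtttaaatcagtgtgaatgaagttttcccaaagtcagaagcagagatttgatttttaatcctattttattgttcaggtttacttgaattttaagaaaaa
Padi3: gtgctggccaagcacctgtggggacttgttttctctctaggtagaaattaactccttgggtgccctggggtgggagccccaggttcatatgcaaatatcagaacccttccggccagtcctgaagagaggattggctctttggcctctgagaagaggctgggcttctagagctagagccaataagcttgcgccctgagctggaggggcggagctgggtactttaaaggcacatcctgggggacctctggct
The promoter table held 7 of the 10 genes (not *Shh*, *Dlx3* and *Lgr5*). For *Lef1*, which has 4 start sites there, only the most upstream was searched, whereas the shares of all stretches count every start site. Of the 7, *Tchh* alone held CTTTGA, at 158 bases (minus strand) and 144 bases (plus strand) before the start site, and 13.8% of 32851 promoter stretches of this length hold it. The letters ACGCT, the core bound by FOXN1, were found before *Msx2*, *Wnt10b* and *Fgf5* (17.6% of all stretches). No match in the 7 was found for GACCACC, which GLI factors bind (2.34% of all stretches), for TAATTG of the DLX and MSX homeodomains (7.17%) or for the letters TATAAA (12.4%). The letters describe these windows and do not show binding.

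Among the ligands, *Shh* (ENSMUSG00000002633.4, chromosome 5 of GRCm38, 28456815 to 28467256, minus strand) encodes Sonic hedgehog. It had 1.21 FPKM (replicate 1) and 4.71 FPKM (replicate 2) under Cont-IMQ, against 3.37 and 3.34 FPKM under 7KC-IMQ, from an estimated 49, 189, 146 and 133 reads. Cont-IMQ replicate 1 was low, and the other 3 libraries lay closer together. *Shh* was the only member with a higher mean of log2 values in the 7KC-IMQ group, by 0.29 (standard error 0.46, 95% interval -0.92 to 1.51, adjusted p = 0.818 in limma). The mean FPKM was 2.96 ± 2.47 for Cont-IMQ and 3.36 ± 0.0237 for 7KC-IMQ (SD, n = 2 each).
*Wnt10b* (ENSMUSG00000022996.15, chromosome 15, 98770712 to 98778150, minus strand) encodes a Wnt ligand of the early growth phase. It had 3.08 FPKM (replicate 1) and 4.67 FPKM (replicate 2) under Cont-IMQ, against 3.87 and 3.19 FPKM under 7KC-IMQ. The groups overlapped, and the spread was smaller than in *Shh*, at 1.52-fold between the Cont-IMQ libraries. The difference between the diets was -0.09 (standard error 0.20, 95% interval -0.61 to 0.43, adjusted p = 0.879 in limma).
*Fgf5* (ENSMUSG00000029337.2, chromosome 5, 98254184 to 98277030, plus strand) was near the limit of detection. It had 0.118 and 0.599 FPKM under Cont-IMQ, against 0.0553 and 0.0600 FPKM under 7KC-IMQ. With the longest annotated transcript these correspond to 4 and 21 reads against 2 and 2, so both 7KC-IMQ libraries were under the floor. Summed by group, 25 reads against 4 give a ratio of 6.45 (95% interval 2.23 to 25.5, exact binomial, counting error only), and 21 of the 25 reads are from Cont-IMQ replicate 2. The difference in log2(FPKM + 1) was -0.34 (standard error 0.20, 95% interval -0.85 to 0.18, adjusted p = 0.527 in limma). This value became -1.31 with a pseudocount of 0.1 and -0.08 without Cont-IMQ replicate 2.

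*Lgr5* (ENSMUSG00000020140.15, chromosome 10, 115450311 to 115587780, minus strand), the receptor for R-spondins among the members, did not share the spread of the Cont-IMQ libraries. It had 3.41 and 3.25 FPKM under Cont-IMQ, against 3.22 and 2.11 FPKM under 7KC-IMQ. The groups did not overlap, but Cont-IMQ replicate 2 and 7KC-IMQ replicate 1 were almost equal, and the low value was that of 7KC-IMQ replicate 2. The difference was -0.26 (standard error 0.18, 95% interval -0.72 to 0.21, adjusted p = 0.590 in limma), and -0.04 without 7KC-IMQ replicate 2. A replicate difference as large as that of *Lgr5* in the Cont-IMQ group (-0.05) was found in 79.8% of all genes.

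Of the transcription factors, *Lef1*, *Msx2* and *Dlx3* were spread widely in the Cont-IMQ group and *Foxn1* was not. *Lef1* (ENSMUSG00000027985.14, chromosome 3, 131110471 to 131224356, plus strand), the nuclear partner of beta-catenin, had 1.38 and 7.04 FPKM under Cont-IMQ, against 3.42 and 2.66 FPKM under 7KC-IMQ. Its difference between the diets was -0.12 (standard error 0.59, 95% interval -1.69 to 1.45, adjusted p = 0.952 in limma). *Msx2* (ENSMUSG00000021469.9, chromosome 13, 53466884 to 53473074, minus strand), a homeobox factor of the hair matrix, had 3.55 and 12.9 FPKM against 6.42 and 5.92 FPKM. The 7KC-IMQ values of both genes lay well inside the range of the Cont-IMQ group. *Dlx3* (ENSMUSG00000001510.8, chromosome 11, 95120119 to 95125296, plus strand), a homeobox factor of the hair matrix that is also active in the upper epidermis, was the most abundant of the 4, with 17.4 and 44.9 FPKM under Cont-IMQ, against 26.7 and 24.3 FPKM under 7KC-IMQ. *Msx2* differed between the diets by -0.15 (standard error 0.54) and *Dlx3* by -0.13 (standard error 0.44), with an adjusted p of 0.931 and 0.925 in limma. *Foxn1* (ENSMUSG00000002057.4, chromosome 11, 78357577 to 78386558, minus strand), the gene mutated in nude mice, had 4.56 and 6.30 FPKM under Cont-IMQ, against 4.66 and 5.72 FPKM under 7KC-IMQ. Replicates 2 and 1 differed by 0.39 under Cont-IMQ and by 0.25 under 7KC-IMQ, and the difference between the diets was -0.05 (standard error 0.18, 95% interval -0.52 to 0.43, adjusted p = 0.937 in limma).

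The structural protein and its enzyme were the members that varied most. *Tchh* (ENSMUSG00000052415.5, chromosome 3, 93442330 to 93449077, plus strand) encodes trichohyalin, the granule protein of the inner root sheath and medulla. It had 8.77 FPKM in Cont-IMQ replicate 1 and 136 FPKM in replicate 2, from an estimated 750 and 11522 reads, and 31.6 and 29.3 FPKM in the 7KC-IMQ libraries. The counting interval of the 15.5-fold ratio between the Cont-IMQ libraries is 14.4 to 16.7 (95%, exact binomial). *Padi3* (ENSMUSG00000025328.9, chromosome 4, 140785365 to 140810648, minus strand), a peptidylarginine deiminase that acts on trichohyalin, had 0.883 and 13.2 FPKM under Cont-IMQ, against 3.15 and 3.01 FPKM under 7KC-IMQ. Both genes thus took the same places in the 4 libraries. Group means were 72.1 ± 89.6 and 30.4 ± 1.64 FPKM for *Tchh*, and 7.06 ± 8.74 and 3.08 ± 0.103 FPKM for *Padi3* (SD, n = 2 each). The differences between the diets were -0.22 (standard error 1.26, 95% interval -3.53 to 3.09, adjusted p = 0.958) for *Tchh* and -0.34 (standard error 0.97, 95% interval -2.89 to 2.21, adjusted p = 0.909) for *Padi3* in limma. Intervals this wide do not show that the diets had equal levels.

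The difference between the Cont-IMQ libraries was compared with that between the 7KC-IMQ libraries on the same scale. Over the 10 genes, Cont-IMQ replicate 2 exceeded replicate 1 by a median of 1.34, against 0.00 over all genes, and the 7KC-IMQ replicates differed by a median of -0.10. Cont-IMQ replicate 2 was at least 2-fold above replicate 1 on the FPKM + 1 scale in 6 of the 10 genes, as in 1.38% of all genes. The 7KC-IMQ libraries were 2-fold apart in none of them (0.503% of all genes). A difference between the Cont-IMQ libraries as large as that of *Tchh* (3.81) was found in 0.164% of all genes, and one as large as that of *Padi3* (2.92) in 0.271%. In the 8 genes of the shared order, the 7KC-IMQ mean lay between 0.31 (*Wnt10b*) and 0.71 (*Shh*) of the way from Cont-IMQ replicate 1 to replicate 2. In bulk skin, fewer cells of a type and less RNA per cell cannot be told apart.

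**Figure D2:**
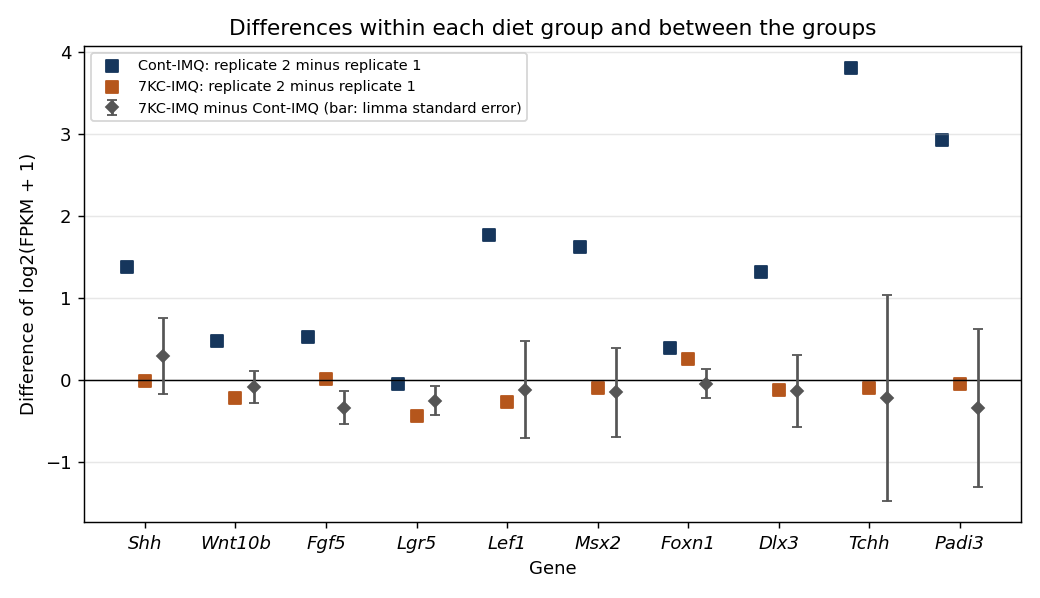
Differences of log2(FPKM + 1) for each gene between replicates 2 and 1 of the Cont-IMQ group (blue squares), between replicates 2 and 1 of the 7KC-IMQ group (orange squares) and between the groups (grey diamonds, bars are limma's standard error). The Cont-IMQ difference reaches 3.81 in *Tchh*, and no 7KC-IMQ difference is larger than 0.44 in size.

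The direction of the comparison depended on which Cont-IMQ library was kept. Without Cont-IMQ replicate 1, all 10 genes were lower in both 7KC-IMQ libraries than in the remaining Cont-IMQ library, as were 39.1% of all genes, with a median difference of -0.69 over the 10. Without Cont-IMQ replicate 2, 8 of the 10 were higher in both 7KC-IMQ libraries, as were 38.8% of all genes, with a median of 0.59 over the 10. Both counts follow from the order of the libraries given above and add no separate result. The median with all libraries was -0.14, against -0.01 over all genes tested. *Tchh* went from -2.12 to 1.69 and *Padi3* from -1.80 to 1.12 between these choices, and *Shh* from -0.39 to 0.98. None of the 10 passed an adjusted p-value of 0.05 in limma with either library left out, where 0.0566% of all genes passed without Cont-IMQ replicate 1 and 0.0315% without Cont-IMQ replicate 2. The smallest adjusted p of a member was 0.0932 (*Tchh* without Cont-IMQ replicate 1, limma). At an unadjusted p-value under 0.05 there were 7 members without Cont-IMQ replicate 1 (14.7% of all genes) and 6 without Cont-IMQ replicate 2 (13.7% of all genes). In such a fit the lone library is assumed to vary like the 7KC-IMQ pair, which for these genes varied little.

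**Figure D3:**
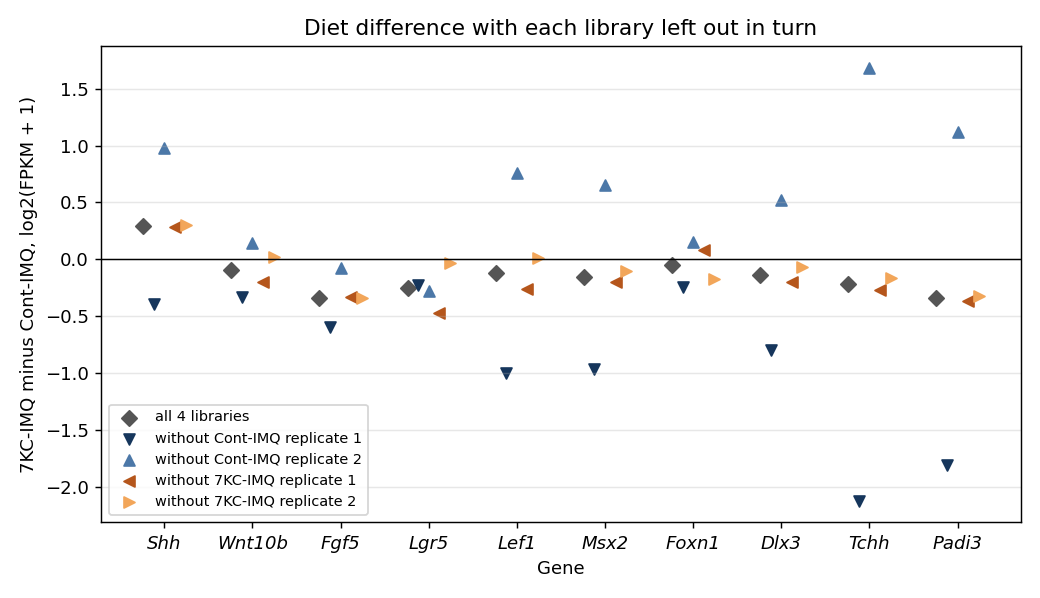
Difference between 7KC-IMQ and Cont-IMQ in log2(FPKM + 1) with all libraries (grey diamonds) and with each library left out in turn (triangles). For *Tchh* the value is -2.12 without Cont-IMQ replicate 1 and 1.69 without Cont-IMQ replicate 2, and for *Lgr5* it stays below 0 in every case.

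Other genes of the pathways to which the members belong were taken from 8 lists (113 genes, 109 tested). By limma, 0 of the 109 passed the adjusted threshold, against 0.00629% of all genes. At an unadjusted p-value under 0.05, 5 had higher and 5 had lower values under 7KC, against 13.0% of all genes with both directions counted. The order with Cont-IMQ replicate 1 lowest and replicate 2 highest was found in 31 of the 109 (28.4%), against 8.85% of all genes.
In the Hedgehog list (13 genes tested, median difference between the diets -0.01), *Gli1* and *Hhip* were among the genes with this order and *Ptch1* was not. *Gli1*, a factor and target of the pathway, had 4.84 and 11.2 FPKM under Cont-IMQ, against 11.1 and 9.60 FPKM under 7KC-IMQ. *Ptch1*, the receptor of Sonic hedgehog and likewise a target, had 7.09 and 11.7 FPKM against 12.1 and 13.1 FPKM. In both genes Cont-IMQ replicate 1 was the low library, as in *Shh*, and the other 3 libraries were closer together. *Smo*, which transmits the signal, was nearly even (23.6 and 26.6 against 28.0 and 27.8 FPKM). Neither *Gli1* (0.42, standard error 0.37, adjusted p = 0.659) nor *Ptch1* (0.42, standard error 0.23, adjusted p = 0.511) passed in limma.
In the Wnt and R-spondin list (28 genes, median -0.11), 7 genes had the order. The Wnt inhibitor gene *Wif1* was the most spread, with 4.02 and 10.4 FPKM under Cont-IMQ, against 5.12 and 4.85 FPKM under 7KC-IMQ. *Ctnnb1*, which encodes beta-catenin, varied little, between 162 and 185 FPKM over the 4 libraries. The Wnt target *Axin2* was lower in both 7KC-IMQ libraries (11.2 and 9.07 against 8.93 and 6.40 FPKM), with a log2 difference of -0.37 and a standard error of 0.19 (adjusted p = 0.485 in limma). The relatives of *Lgr5* did not share its low value in 7KC-IMQ replicate 2, as *Lgr4* had 11.2 and 11.1 FPKM and *Lgr6* 5.01 and 5.11 FPKM in the 7KC-IMQ libraries.
In the list of BMP genes and of Msx and Dlx factors (16 genes, median 0.04), 6 genes had the order, with some relatives of *Msx2* and *Dlx3* among them. *Msx1* had 0.489 and 2.51 FPKM under Cont-IMQ, against 1.13 and 1.22 FPKM under 7KC-IMQ, and *Dlx2* had 0.200 and 2.66 against 1.34 and 1.48 FPKM. *Dlx5*, named after its values were seen, did not differ in this way (12.9 and 13.3 against 10.1 and 14.2 FPKM). The ligand *Bmp4* (8.61 to 10.9 FPKM) and its receptor *Bmpr1a* (26.5 to 29.3 FPKM) varied little over the libraries. Among matrix and precortex factors (14 genes, median -0.06), *Hoxc13*, a regulator of hair keratin genes, had 2.94 and 13.3 FPKM against 6.42 and 5.38 FPKM, close to the pattern of *Lef1*. *Gata3*, a factor of the inner root sheath that other skin cells and lymphocytes express as well, did not follow it (39.6 and 32.1 against 32.6 and 19.2 FPKM).
Of the FGF genes (9 tested, median -0.24), *Fgfr1*, a receptor for FGF5, had 23.3 and 31.2 FPKM against 24.4 and 24.3 FPKM, and 2 of the 9 genes had the order. *Fgf22* was lower in both 7KC-IMQ libraries (11.1 and 7.61 against 3.74 and 5.01 FPKM, log2 difference -0.93, standard error 0.22), as was the receptor gene *Fgfr2* (27.2 and 25.1 against 21.2 and 20.98 FPKM, log2 difference -0.30, standard error 0.08), each with an adjusted p of 0.356 in limma. Stem cell genes of the bulge and the upper follicle had a median difference of 0.00 (12 genes), with 4 in the shared order. Of the 12, 4 were lower and 2 were higher in both 7KC-IMQ libraries (22.9% and 23.9% of all genes). *Lhx2* had 12.3 and 19.6 FPKM against 18.9 and 17.5 FPKM, while *Krt15* was lower in both 7KC-IMQ libraries (216 and 172 against 123 and 96.9 FPKM, log2 difference -0.81, standard error 0.17, adjusted p = 0.352 in limma). *Krt79* was higher in both (827 and 683 against 986 and 906 FPKM, log2 difference 0.33, adjusted p = 0.400 in limma). So was *Plet1*, named after its values were seen (68.1 and 78.9 against 119 and 127 FPKM, log2 difference 0.73, adjusted p = 0.331 in limma). Dermal papilla genes (12, median 0.20) included *Corin*, with 0.376 and 2.05 FPKM under Cont-IMQ, against 1.39 and 1.34 FPKM under 7KC-IMQ. Of the 12, 2 had the order (8.85% of all genes). In both 7KC-IMQ libraries, 4 were higher and 2 were lower (23.9% and 22.9% of all genes). The largest of these differences was that of *Crabp1* (11.4 and 8.55 against 19.0 and 20.9 FPKM, log2 difference 0.94, standard error 0.15, adjusted p = 0.352 in limma). The ectodysplasin list (5 genes, median 0.08) held 1 gene in the shared order, *Edar*.

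Most listed products of growing follicles and of their pigment cells had the same order as the members. Of 13 hair shaft keratin genes, 12 had the order with Cont-IMQ replicate 1 lowest and replicate 2 highest (8.85% of all genes). Their summed level was 13.5 and 164 FPKM under Cont-IMQ, against 47.4 and 44.0 FPKM under 7KC-IMQ. Of 17 genes of the inner root sheath and medulla, 12 had it, as *Krt71* with 34.5 and 503 FPKM against 135 and 112 FPKM. The relatives and partners of *Padi3* in that list were divided. *Padi1* had 1.22 and 2.93 FPKM against 0.682 and 1.26 FPKM, and *Tchhl1*, a relative of *Tchh*, had 0.105 and 12.6 FPKM against 0.979 and 1.56 FPKM. *Tgm3*, a transglutaminase that crosslinks trichohyalin and also acts in the epidermis, ran the other way in the Cont-IMQ group (17.3 and 7.79 against 12.2 and 22.4 FPKM).
Of 11 melanocyte genes, 8 had the shared order (8.85% of all genes), with summed levels of 54.7 and 165 FPKM against 95.1 and 81.8 FPKM. Among them, *Dct* had 16.7 and 51.7 against 29.0 and 26.1 FPKM. In contrast, the summed epidermal genes were highest in Cont-IMQ replicate 1 and lowest in replicate 2 (24271 and 16379 FPKM), as were the summed fibroblast genes (3531 and 2590 FPKM). *Krt1* and *Krt10* made up most of the epidermal difference, since the other 7 genes summed to 9961 and 8591 FPKM under Cont-IMQ. Under 7KC-IMQ those 7 genes summed to 9484 and 10425 FPKM, so 7KC-IMQ replicate 2 was their highest library. The reverse order, with Cont-IMQ replicate 1 highest and replicate 2 lowest, was found in 4 of 9 epidermal and 2 of 7 fibroblast genes. No share of all genes with that order is given here to set beside these counts. The median replicate difference of the epidermal genes was -0.09. Of 10 proliferation genes, 0 had the order and 9 were higher in both 7KC-IMQ libraries (23.9% of all genes). Leukocyte genes (8, of which 1 had the order) summed to 1598 and 1410 FPKM in the Cont-IMQ group but to 3918 and 7073 FPKM under 7KC. That difference was in *S100a8*, an alarmin gene that keratinocytes also express (1267 and 1037 against 3608 and 6775 FPKM), and the other 7 genes summed to 331 and 373 against 310.1 and 298 FPKM. The order was found in 2 of 7 adipocyte genes (856 and 1356 against 1323 and 1174 FPKM summed), in 0 of 8 sebaceous gland genes and in 0 of 9 skeletal muscle genes. In lists this small, counts of 0 or 1 are near the share of all genes (8.85%) and do not set a list apart. The part of these cell types in the values of the members was not tested. None of these genes passed the adjusted threshold in limma.

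**Figure D4:**
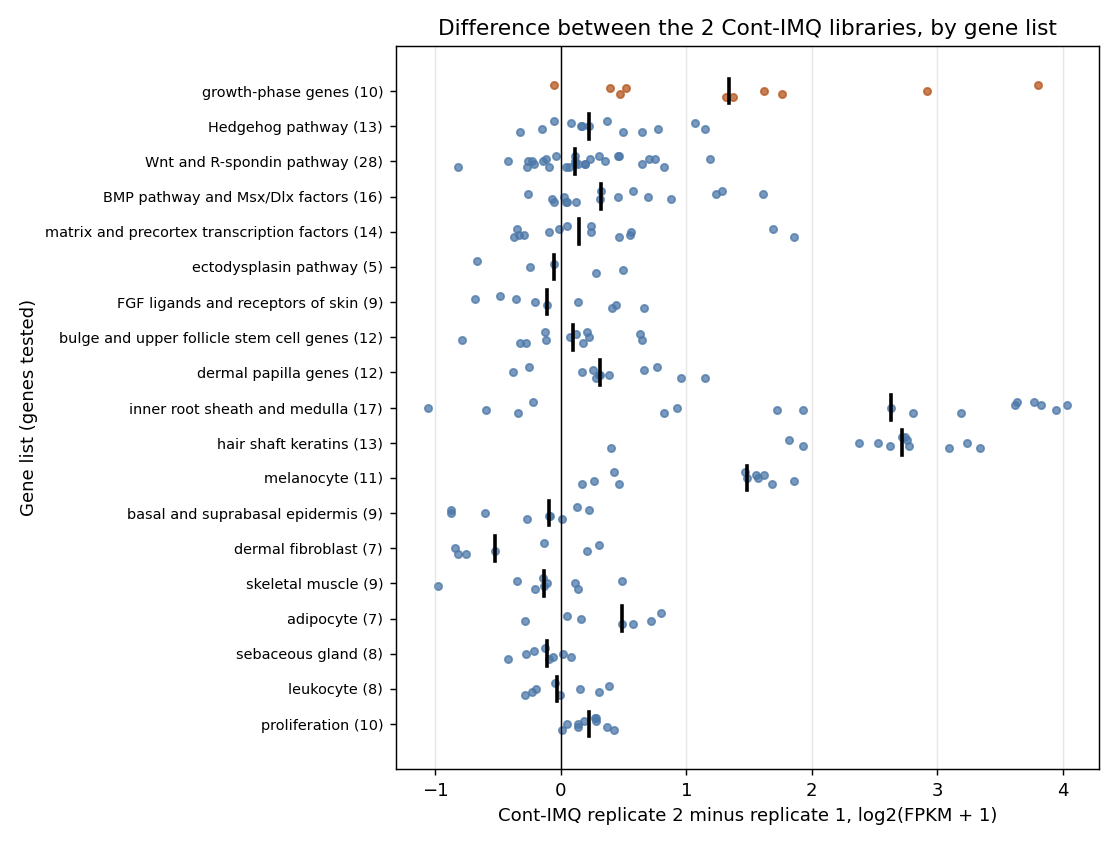
Difference between Cont-IMQ replicates 2 and 1 in log2(FPKM + 1) for every tested gene of each list (points, shifted vertically only to be seen), with the median as a black line. The median is 1.34 over the 10 growth-phase genes, 2.71 over hair shaft keratins, 2.63 over the inner root sheath and medulla and 1.48 over melanocyte genes, and in the other lists it is at most 0.49 (adipocyte).

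Genes with the most similar profile were sought among 13101 other genes with a mean of at least 1 FPKM, by Euclidean distance between centred log2(FPKM + 1) values over the 4 libraries. The 10 nearest to the mean profile of the members were *Dusp2*, *Syt4*, *Dct*, *Bambi*, *Dclk3*, *Pmel*, *Msx1os*, *Col11a1*, *Slc7a8* and *Notum*, at distances of 0.07 to 0.17. *Dusp2* had 1.80 and 6.37 FPKM under Cont-IMQ, against 3.53 and 3.13 FPKM under 7KC-IMQ. By single member, *Tchh* was nearest to *Krt27*, *Krtap3-1* and *Krt71*, *Padi3* to *Krt33b*, *Krt32* and *Crnn*, and *Lef1* to *Ggt1*, *Hoxc13* and *Dsg4*. *Msx2* was nearest to *Pmel*, at a distance of 0.01, and *Dlx3* to *Dusp2*. *Shh* was nearest to *Adora1*, *Mgp* and *Corin*. The nearest gene was *Ccnl1* for *Foxn1*, *Grb10* for *Wnt10b* and *Esr1* for *Lgr5*. A likeness over 4 libraries rests on few points.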

How the data were processed

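RNA sequencing of dorsal skin gave 4 libraries, 2 per diet group, made with a strand-keeping kit. Per the paper and the labels, reads of 75 bases from one end were aligned to mm10 by the authors. The submitters' processing notes name TopHat2 2.1.1, Bowtie2 2.2.8, SAMtools 0.1.18 and Cuffdiff 2.2.1, whereas the paper's methods name Cufflinks and other versions of the mapping tools. The deposited values are FPKM, 1 per gene symbol and library, without read counts. The gene annotation the authors used, and whether strand entered their counting, are not given in the sources used here. This bears on *Shh*, *Lef1*, *Tchh* and *Lgr5*, whose spans overlap annotated genes on the opposite strand. The overlap of *Lef1* with *Gm42449* is on the same strand, so strand could not separate it.

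From the FPKM, log2(FPKM + 1) was compared by limma 3.58.1 in R 4.3.3 (variance trend, Benjamini-Hochberg adjustment over the 15896 genes whose FPKM averaged 0.1 or more), after the same code had been tested on simulated data. With 2 libraries in each group, 0.333 is the smallest two-sided p-value of an exact permutation test. Replicate numbers are shared between the groups, but nothing says that they pair libraries, and the correlation of their deviations over genes was 0.07. Depth was estimated from 3071 single-transcript genes (length less 200 bases) as the read number that brings their low values nearest to whole reads. At that number 453 to 481 genes per library had low values, and 74.8% to 78.1% of these came within 0.1 of a whole read. The 20% by chance holds for a read number fixed beforehand, whereas this one was chosen to make the share largest. The exact binomial intervals of read ratios cover counting error only, whereas the limma intervals rest on the spread between the libraries. Coordinates are of GENCODE M21 (GRCm38) and promoters of RefSeq. The genes and lists were chosen with earlier results of these data known. Genes named from the lists were marked partners, the gene with the highest mean FPKM, and those with the largest difference between groups (without overlap) or between the Cont-IMQ libraries. Genes of like profile were taken by distance alone.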

Additional observations from a re-analysis of the deposited data

How the results depend on the processing

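No member passed an adjusted p-value of 0.05 in limma under any alternative: pseudocount 0.1, a mean FPKM of at least 1 (which removes *Fgf5*), no filter, median ratio scaling, equal sums, quantile normalization, no variance trend, the replicate block, or leaving out a library. The same was true of the 109 related genes. In this balanced design the replicate block cannot change the differences (median -0.14 with and without it), only their errors, and no call changed. Apart from leaving out a library, 79 of 79 differences of single genes kept their direction. The filters, the variance trend and the replicate block cannot change a gene's difference, so their part of this count was fixed in advance. Only the pseudocount, the scalings and quantile normalization could have reversed a direction. Leaving out each library gave 11 reversals among 40, with ranges of -0.39 to 0.98 for *Shh*, -0.9996 to 0.76 for *Lef1*, -0.96 to 0.66 for *Msx2*, -0.24 to 0.15 for *Foxn1*, -2.12 to 1.69 for *Tchh*, -0.79 to 0.52 for *Dlx3*, -0.33 to 0.15 for *Wnt10b* and -1.80 to 1.12 for *Padi3*. The median ranged from -0.69 to 0.59, the number of members higher without overlap from 0 to 8 (8 without Cont-IMQ replicate 2, beside 38.8% of all genes) and the number lower from 2 to 10 (10 without Cont-IMQ replicate 1, beside 39.1%). The counts of 8 and 10 follow from the order of the libraries given above. *Fgf5* and *Lgr5* were lower in every case. The number lower without overlap was 1 with a mean FPKM of at least 1 (*Lgr5* alone) and 1 with quantile normalization. Depth limits *Fgf5*, at 2 to 21 reads, and with 2 libraries per group the spread of the Cont-IMQ pair limits most of the others, and that of the 7KC-IMQ pair limits *Lgr5*.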
